A study of Mus musculus with 6 samples.

Results

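Polycomb, trithorax and histone methylation regulators are the genes whose products write, read and erase methyl groups on histone tails. A set of 44 of them was followed by gene symbol in RNA from blood stem and progenitor cells, out of 23420 genes in the tables: 7 genes of Polycomb repressive complex 2 (PRC2), 14 of Polycomb repressive complex 1 (PRC1), 9 KMT2 enzymes and partners, 3 other histone methyltransferases and 11 histone demethylases. They were picked by symbol, and earlier results of these data were known when the set was chosen. PRC2 methylates histone H3 on the lysine that marks silenced genes, and PRC1 binds that mark through its CBX subunits and adds ubiquitin to histone H2A through its RING subunits. The KMT2 enzymes, the mammalian trithorax proteins, place the opposing methyl mark at promoters and enhancers, and the lysine demethylases remove such marks. In blood stem cells Bmi1 and Ezh1 are known for self-renewal, Kmt2a for Hox gene expression, and several of the others are mutated in leukaemia.

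RNA came from LSK cells of mouse bone marrow, cells without lineage markers that carry Sca-1 and c-Kit and include the stem cells. The comparison addresses what differs in these cells when osteoblasts, which build bone, carry an activated signal. It sets 3 bcat(ex3)osb mice, in which β-catenin signalling was permanently on in osteoblasts, against 3 wild-type (WT) littermates. The sources used here give no strain, age or driver of the allele, and each library came from 1 mouse. Mice are numbered as in the sample titles, and wherever 3 values stand together they follow mouse 1, 2 and 3.

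The libraries held 17191996 to 18678599 counts in bcat(ex3)osb mice and 15431235 to 19956774 in WT mice. All 10 LSK markers passed the filter on low counts, with summed levels of 3276, 3187 and 3906 CPM in bcat(ex3)osb mice, against 4831, 3185 and 3945 CPM in WT mice, which overlapped. CPM stands for counts scaled to a common library size. Of these markers 9 had negative log2 fold changes, and Ly6a and Procr were lower in every bcat(ex3)osb mouse. For Procr the gap was very small, with 28.82 CPM in bcat(ex3)osb mouse 3 against 28.89 CPM in WT mouse 3. Its groups overlapped once the gene-length trend described below was removed. Ly6a, which encodes the sort marker Sca-1, had 81.5, 65.9 and 75.7 CPM in bcat(ex3)osb mice, against 148, 162 and 156 CPM in WT mice. The change of Ly6a was -1.06 (SE 0.18) on the log2 scale, with an adjusted p of 0.312 in edgeR and 1.27e-05 in DESeq2. Kit, which encodes c-Kit, had 490.02, 345 and 725 CPM in bcat(ex3)osb mice, against 1002, 323 and 719.9 CPM in WT mice, with overlap. The library of bcat(ex3)osb mouse 2 lay far from the other 5 on the leading principal axis (50.3% of variance). Relative to the other libraries it had more reads in short genes and fewer in long ones, and WT mouse 2 showed a weaker form of this. Transcripts of Y-linked genes were high in bcat(ex3)osb mice 1 and 2, while Xist was high in the other 4 mice, so the 2 male mice were both bcat(ex3)osb and all WT mice were female. Markers of granulocyte-monocyte progenitors summed to 8176, 11291 and 6287 CPM in bcat(ex3)osb mice, against 1300, 3064 and 3197 CPM in WT mice, without overlap between the genotypes. Those of mast cells and basophils summed to 222, 402 and 397 CPM in bcat(ex3)osb mice, against 174, 178 and 175 CPM in WT mice, and those of megakaryocytes to 58.8, 160.3 and 124 CPM in bcat(ex3)osb mice, against 45.4, 41.9 and 50.2 CPM in WT mice, both higher in every bcat(ex3)osb mouse. As single genes, 2 of 5 tested mast cell and basophil markers and 1 of 3 tested megakaryocyte markers were higher without overlap. Their median log2 fold changes were 1.95 and 0.46, and 1.06 and 0.08 without bcat(ex3)osb mouse 2. Markers of B cells summed to 316, 89.1 and 66.6 CPM in bcat(ex3)osb mice, against 361, 532 and 593 CPM in WT mice. Markers of macrophages summed to 7.11, 5.10 and 33.98 CPM in bcat(ex3)osb mice, against 70.9, 75.8 and 44.5 CPM in WT mice, and those of osteoblasts to 5.11, 0.71 and 2.00 CPM in bcat(ex3)osb mice, against 18.8, 6.37 and 23.00 CPM in WT mice, with Ibsp and Sp7 at 0 in all bcat(ex3)osb mice. The osteoblast markers were near the floor, and 1 of the 5 passed the filter on low counts. What part these differences have in the values that follow was not tested. In bulk RNA, fewer cells of a type and less RNA per cell cannot be told apart.

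All 44 regulators were expressed, and none differed between the genotypes past the threshold. Every one had at least 111 counts in every library, so all 44 passed the filter of 10 counts in 3 libraries and were among the 12713 genes tested. With edgeR's quasi-likelihood test and an adjusted p under 0.05, 0 of the 44 were higher and 0 were lower in bcat(ex3)osb mice, where the same test called 0% of all tested genes higher and 0% lower. Without adjustment, a p under 0.05 was again reached by 0 of 44, against 6.55% of all tested genes. DESeq2 called 0 of the 44, against 1.35% of all genes, and limma-voom called 0. The smallest adjusted p among the regulators was 0.809 by edgeR and 0.667 by DESeq2. The p-values set the difference between the genotypes against the spread between mice of the same genotype.

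Per transcript length, the regulators spanned a wide range of levels. Among the highest levels in FPKM, counts scaled by gene length and library size, was that of the PRC2 subunit Eed, which averaged 65.8 ± 9.71 FPKM in bcat(ex3)osb mice and 79.5 ± 4.65 FPKM in WT mice (SD, n = 3 each). The COMPASS subunit Ash2l averaged 62.8 ± 5.94 FPKM in bcat(ex3)osb mice and 69.9 ± 1.81 FPKM in WT mice. The PRC1 subunit Pcgf5 averaged 65.3 ± 1.55 FPKM in bcat(ex3)osb mice and 63.8 ± 4.65 FPKM in WT mice, and Ezh2 50.1 ± 10.1 FPKM in bcat(ex3)osb mice and 64.9 ± 16.5 FPKM in WT mice. In bcat(ex3)osb mice the ranges of Eed, Ash2l and Pcgf5 overlapped, while in WT mice every value of Eed was above every value of Ash2l. At the low end stood the PRC1 subunit Phc3 with 1.44 ± 0.807 FPKM in bcat(ex3)osb mice and 1.64 ± 0.0551 FPKM in WT mice, the demethylase gene Kdm6b with 1.65 ± 0.281 FPKM in bcat(ex3)osb mice and 1.85 ± 1.04 FPKM in WT mice, and Kmt2b with 2.92 ± 0.0436 FPKM in bcat(ex3)osb mice and 2.80 ± 0.482 FPKM in WT mice.

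**Figure D1:**
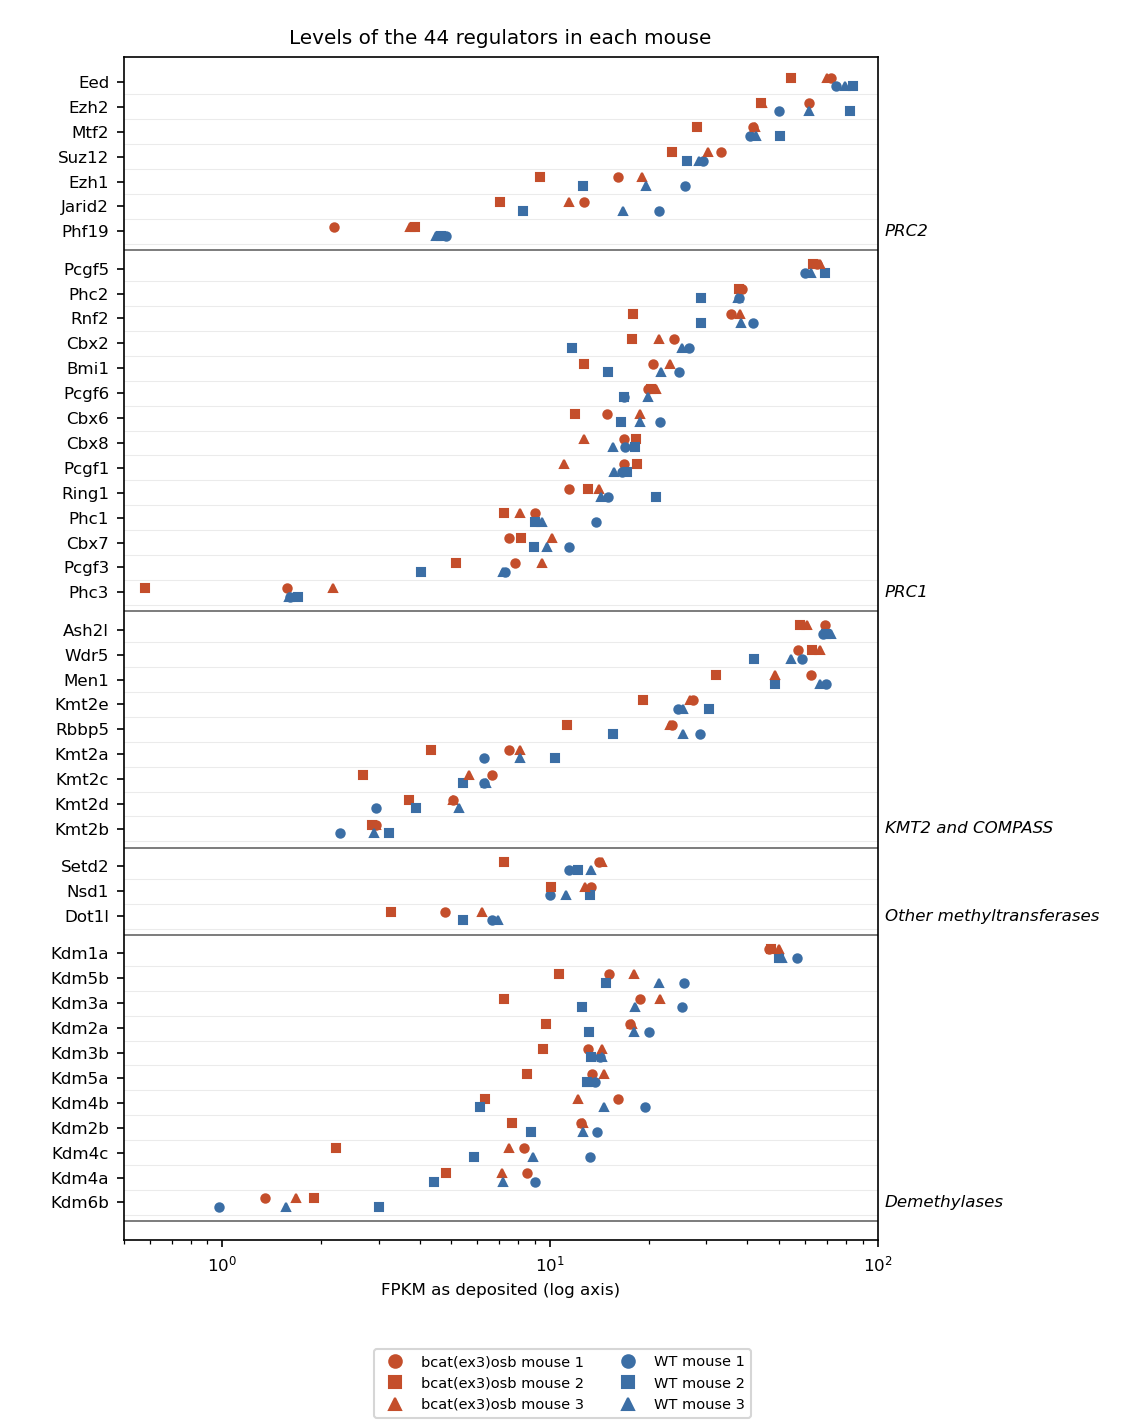
Deposited FPKM of the 44 regulators in each mouse on a log axis, grouped by role and sorted by level; orange symbols are bcat(ex3)osb mice, blue symbols are WT mice, and the symbol's shape is the mouse number. The squares of mouse 2, most of all that of bcat(ex3)osb, stand to the left of the other symbols in many genes, while the 2 colours are otherwise mixed.

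The differences were small and their intervals bound them. Log2 fold changes, bcat(ex3)osb over WT, ran from -0.57 for Kdm4c to 0.36 for Wdr5. Of the 44, 14 were positive and 30 negative, which is 68.2% negative against 49.8% of all tested genes, and the median was -0.12 against 0.00 over all tested genes. The median size of the change regardless of sign was 0.18 among the regulators and 0.24 among all tested genes. For 35 of the 44, the 95% interval lay within a 2-fold change either way. The 9 that reached 2-fold were Ezh1, Jarid2, Phf19, Pcgf3, Phc3, Kdm3a, Kdm4b, Kdm4c and Kdm6b. For 7 genes, Suz12, Pcgf5, Kmt2e, Ash2l, Kdm1a, Kdm3b and Kdm5a, the interval lay within 1.5-fold.

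In the genotype fit, the excess of negative signs moved with 1 library. Without bcat(ex3)osb mouse 2, the sign of 13 regulators turned, 21 of 44 were negative and the median was 0.04. With the mouse's sex as a covariate, 22 were negative and the median was 0.00. Both male mice were bcat(ex3)osb, so with that covariate the genotype effect compares bcat(ex3)osb mouse 3 alone with the WT mice. The same holds wherever a value with sex as a covariate is given. With the gene-length trend of each library removed, 29 were negative and the median was -0.09, the median half-width of the 95% intervals was 0.43 in place of 0.57, and 41 intervals lay within 2-fold. Leaving out 1 mouse at a time with that trend removed was an alternative chosen after the data were seen. The median then stayed negative, from -0.11 to -0.04, and was -0.07 without bcat(ex3)osb mouse 2.

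**Figure D2:**
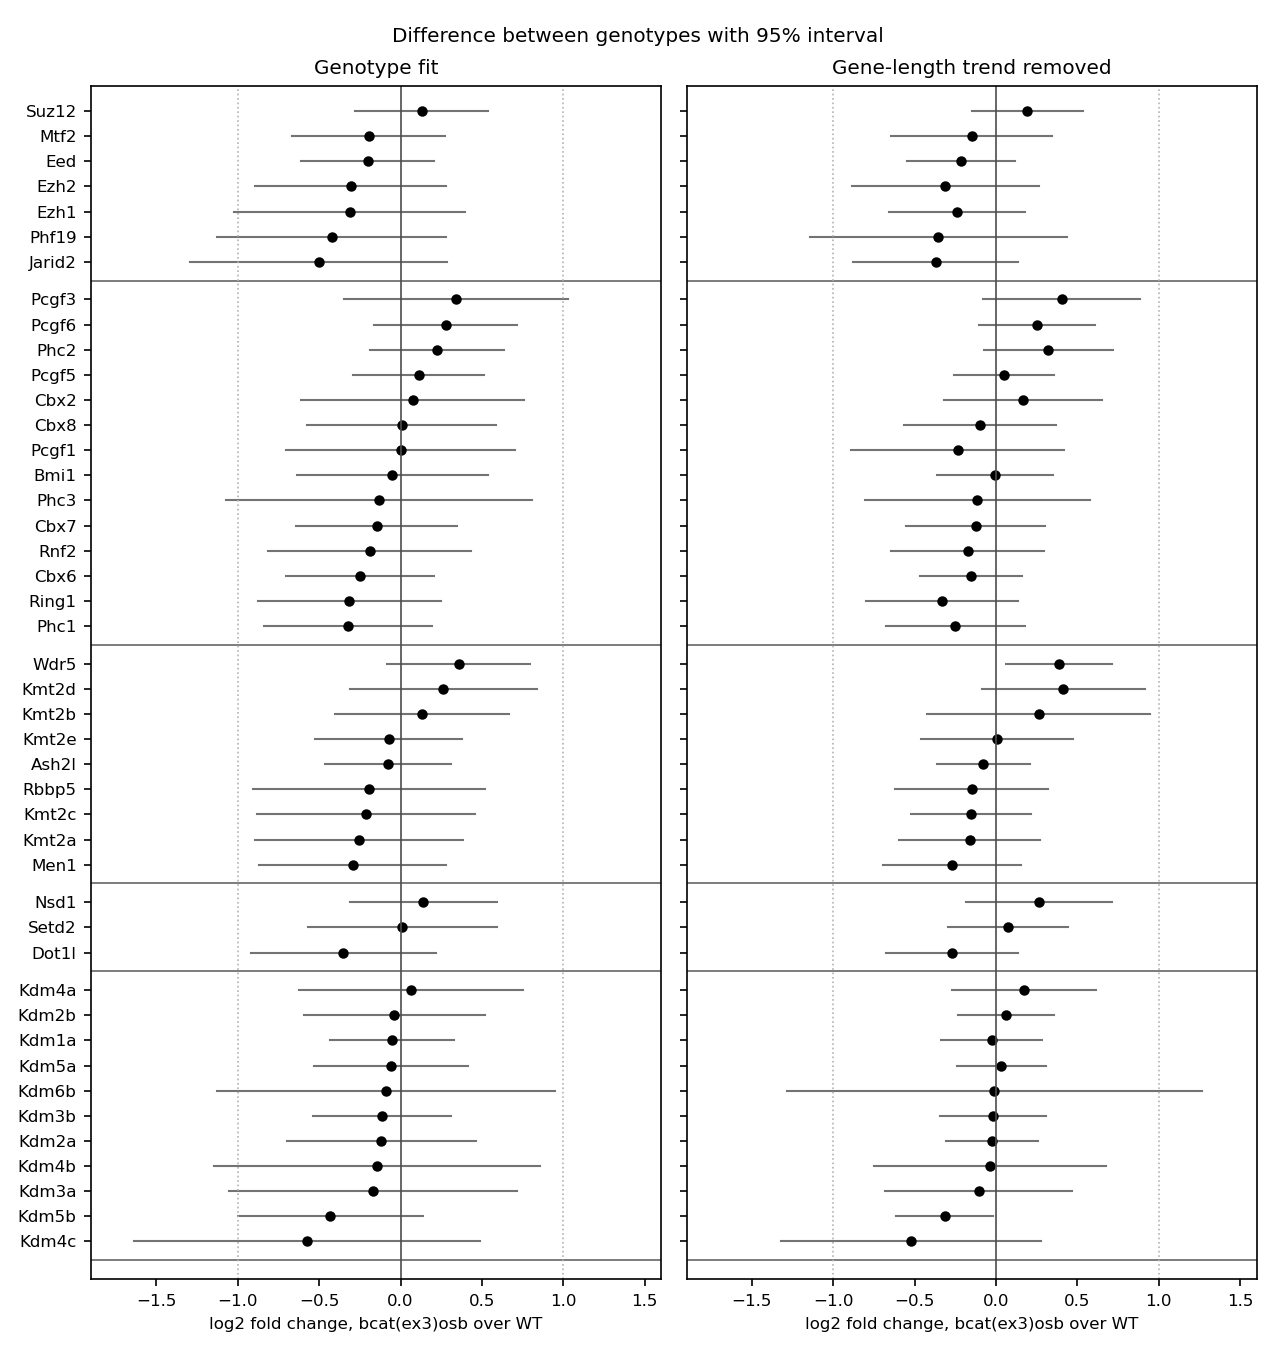
Log2 fold change of each regulator, bcat(ex3)osb over WT, with its 95% interval, from the genotype fit on the left and with the gene-length trend removed on the right; solid horizontal lines separate the role groups and dotted vertical lines mark a 2-fold change. On the left every interval covers 0; on the right those of Wdr5 and Kdm5b do not, without adjustment for the number of genes tested.

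In 4 regulators the 2 genotypes did not overlap. Wdr5, Pcgf6 and Phc2 were higher in every bcat(ex3)osb mouse than in every WT mouse, which makes 3 of 44 where 6.87% of all tested genes did so. Phf19 was lower in every bcat(ex3)osb mouse, 1 of 44 where 7.67% of all tested genes did so. Both counts are near or below the share over all genes. With the length trend removed, 4 were higher without overlap (Pcgf3, Pcgf6, Phc2 and Wdr5) against 9.75% of all genes, and 2 were lower (Ring1 and Kdm5b) against 9.65%.

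Wdr5, the scaffold that the KMT2 enzymes share, had 166, 204 and 189 CPM in bcat(ex3)osb mice, against 161, 122 and 153 CPM in WT mice (chr2:27515147-27536535, GRCm38.p6). The lowest bcat(ex3)osb mouse and the highest WT mouse were close together, and WT mouse 2 was the lowest of all 6. Wdr5 averaged 186 ± 18.8 CPM in bcat(ex3)osb mice and 146 ± 20.6 CPM in WT mice (SD, n = 3 per genotype). The log2 fold change was 0.36 (SE 0.19) with a 95% interval of -0.08 to 0.80, unadjusted p = 0.0971 and an adjusted p of 0.809 in edgeR. With the length trend removed the change was 0.39 with SE 0.14, unadjusted p = 0.025 and adjusted p = 0.409, and leaving out 1 mouse at a time it ran from 0.25 to 0.43 in the genotype fit. Wdr5 and Kdm5b were the 2 of 44 regulators with an unadjusted p under 0.05 after the length trend was removed, against 10.6% of all tested genes.

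Pcgf6, which directs a variant PRC1 to promoters of germline genes in mouse embryonic stem cells, had 41.9, 47.4 and 43.2 CPM in bcat(ex3)osb mice, against 33.5, 35.4 and 40.5 CPM in WT mice (chr19:47033617-47050939). The gap between the groups was small, with bcat(ex3)osb mouse 1 just above WT mouse 3. Its log2 fold change was 0.28 (SE 0.19), with an adjusted p of 0.869 in edgeR. Phc2, a polyhomeotic subunit whose SAM domain chains PRC1 complexes together, had 169, 183 and 162 CPM in bcat(ex3)osb mice, against 156, 126 and 158 CPM in WT mice (chr4:128654655-128752881). WT mouse 2 was far below the other 5 mice, which lay close together. Its log2 fold change was 0.22 (SE 0.18), with an adjusted p of 0.882 in edgeR. For 42 of the 44 regulators the difference between the genotype means was smaller than the wider of the 2 within-genotype ranges, and Wdr5 and Pcgf6 were the exceptions. The same count was not made over all tested genes.

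The PRC2 genes showed no change past the threshold: 0 of 7 were called, 1 was positive and 6 negative, with a median log2 fold change of -0.31. It was -0.24 with the length trend removed and -0.13 without bcat(ex3)osb mouse 2. Summed over the 7 genes, PRC2 transcripts came to 837, 639.9 and 762 CPM in bcat(ex3)osb mice, against 842, 897 and 852 CPM in WT mice. The mouse with the lowest sum was bcat(ex3)osb mouse 2, and bcat(ex3)osb mouse 1 was nearly as high as WT mouse 1.

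Ezh2, the main catalytic subunit in dividing cells, had 165, 131 and 115 CPM in bcat(ex3)osb mice, against 127, 221 and 160.2 CPM in WT mice (chr6:47530274-47595270). WT mouse 2 was the highest and WT mouse 1 lay inside the bcat(ex3)osb range. Its log2 fold change was -0.31 (SE 0.25) with an interval of -0.89 to 0.28 and an adjusted p of 0.89 in edgeR. Ezh1, its paralogue and the form found in resting cells too, had 68.3, 43.5 and 78.3 CPM in bcat(ex3)osb mice, against 103, 53.01 and 80.1 CPM in WT mice (chr11:101191115-101226463). Both mice numbered 2 were low, and the groups overlapped. The log2 fold change of Ezh1 was -0.31 (SE 0.31), with an interval of -1.02 to 0.40. With sex as a covariate, which leaves bcat(ex3)osb mouse 3 against the WT mice, the changes were -0.01 for Ezh1 and -0.56 for Ezh2.

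Eed, which binds the finished methyl mark and stimulates the enzyme, had 149.9, 125 and 141 CPM in bcat(ex3)osb mice, against 146, 174 and 159 CPM in WT mice. Only bcat(ex3)osb mouse 1 reached the WT range, and the log2 fold change was -0.20 (SE 0.18). Suz12, which holds the core complex together, had 147, 114 and 129.7 CPM in bcat(ex3)osb mice, against 121, 115 and 121 CPM in WT mice, and a change of 0.13 (SE 0.18). It was the positive member of the group, and its bcat(ex3)osb values lay on both sides of the narrow WT range.

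Of the accessory subunits, Jarid2, a recruiting subunit without demethylase activity of its own, had 78.7, 47.9 and 68.5 CPM in bcat(ex3)osb mice, against 125, 51.2 and 99.9 CPM in WT mice. The values of the mice numbered 2 were the lowest in both genotypes. Its log2 fold change was -0.50 (SE 0.34) and ran from -0.80 to -0.22 when 1 mouse was left out at a time. Without both libraries of mouse 2, an alternative chosen after the data were seen, it was -0.62 with unadjusted p = 0.00704 and an adjusted p of 0.267 in edgeR. Phf19, a Polycomb-like subunit with a Tudor domain, had 8.24, 16.1 and 13.6 CPM in bcat(ex3)osb mice, against 17.02, 17.5 and 16.3 CPM in WT mice (chr2:34893752-34914353). The WT mice lay close together, bcat(ex3)osb mouse 1 was far below them and mouse 2 just below. Its log2 fold change was -0.42 (SE 0.31) with an adjusted p of 0.876 in edgeR, and with the length trend removed the groups overlapped. Mtf2, another Polycomb-like subunit, had 219, 163 and 215 CPM in bcat(ex3)osb mice, against 203, 265 and 216 CPM in WT mice, with the 2 extremes in the mice numbered 2.

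Ezh2 and other PRC2 genes are known targets of E2F factors in dividing cells, so the start sites of PRC2 genes were searched for an E2F-type motif. The motif was any of TTTCCCGC, TTTGGCGC, TTTCGCGC or TTTGCCGC on either strand, in windows from 250 bases before to 50 bases after an annotated start site, taken from RefSeq on GRCm38.p6. Of the 44 regulators 33 had such a window, 47 windows in all. The motif was in 3 of these 47, as TTTGGCGC in Ezh2, as TTTCCCGC in Suz12 and on the other strand, where it reads GCGGGAAA, in Phf19. It was in 744 of all 32851 windows, or 2.26%. A match is a description of letters and not of binding. The 3 windows are shown with the motif in capitals, and that of Ezh1, which held none, is shown for comparison with its paralogue. They are written 5′ to 3′ in the direction of the gene: Ezh2 is chr6:47594981-47595280 (minus strand), Suz12 chr11:79992856-79993155 (plus strand), Phf19 chr2:34913927-34914226 (minus strand) and Ezh1 chr11:101226414-101226713 (minus strand).
Ezh2: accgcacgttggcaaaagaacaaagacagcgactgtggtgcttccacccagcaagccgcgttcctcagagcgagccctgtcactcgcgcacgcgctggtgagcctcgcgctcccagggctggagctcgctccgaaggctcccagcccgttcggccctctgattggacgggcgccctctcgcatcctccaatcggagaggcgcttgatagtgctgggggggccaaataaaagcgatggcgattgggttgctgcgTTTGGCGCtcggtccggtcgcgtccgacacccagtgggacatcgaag
Suz12: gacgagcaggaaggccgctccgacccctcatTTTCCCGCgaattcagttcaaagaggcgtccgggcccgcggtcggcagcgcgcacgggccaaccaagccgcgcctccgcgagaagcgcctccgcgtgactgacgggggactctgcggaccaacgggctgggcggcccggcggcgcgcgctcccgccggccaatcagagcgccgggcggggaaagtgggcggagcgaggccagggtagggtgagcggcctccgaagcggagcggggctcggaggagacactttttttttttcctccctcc
Phf19: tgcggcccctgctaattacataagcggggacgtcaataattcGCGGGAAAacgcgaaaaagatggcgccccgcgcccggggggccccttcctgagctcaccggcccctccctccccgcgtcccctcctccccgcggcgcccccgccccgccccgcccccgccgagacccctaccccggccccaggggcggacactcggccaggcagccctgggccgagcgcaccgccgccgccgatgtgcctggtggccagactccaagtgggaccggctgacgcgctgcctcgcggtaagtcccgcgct
Ezh1: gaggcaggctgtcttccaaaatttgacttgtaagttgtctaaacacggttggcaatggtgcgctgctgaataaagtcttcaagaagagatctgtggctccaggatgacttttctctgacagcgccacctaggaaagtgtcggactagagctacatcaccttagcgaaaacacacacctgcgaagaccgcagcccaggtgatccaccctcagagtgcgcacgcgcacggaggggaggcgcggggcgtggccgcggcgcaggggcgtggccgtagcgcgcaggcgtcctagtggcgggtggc
In Ezh2 the motif started 3 bases after the window's start site, and in Suz12 and Phf19 it started 219 and 208 bases before it. The start sites of the Ezh2 and Phf19 windows lie 240 and 377 bases inside the outer end of the gene as annotated, and those of Suz12 and Ezh1 are at that end. The 3 genes with the motif had log2 fold changes of -0.31, 0.13 and -0.42, of both signs, and Ezh1 without it had -0.31.

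The balance between the 2 catalytic subunits was compared within each mouse. Of the summed FPKM of Ezh1 and Ezh2, Ezh1 made up 20.8%, 17.5% and 30.2% in bcat(ex3)osb mice, against 34.1%, 13.2% and 24.1% in WT mice. The WT range enclosed that of the bcat(ex3)osb mice. The means were 22.8% ± 6.60 in bcat(ex3)osb mice and 23.8% ± 10.4 in WT mice (SD, n = 3 each), a difference of -0.99 percentage points, with p = 1 in a two-sided exact permutation test, where 3 mice against 3 allow no p below 0.1. With the length trend removed the difference was -0.06 points (p = 1, the same exact test). Its sign turned when 1 mouse was left out: it was 0.0252 points without bcat(ex3)osb mouse 1, 1.69 without bcat(ex3)osb mouse 2 and 4.14 without WT mouse 1.

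The 14 PRC1 genes split evenly, 7 positive and 7 negative with 0 called, and their median log2 fold change was -0.03. It was -0.11 with the length trend removed. Bmi1, the PCGF subunit of canonical PRC1 that stem cells need to keep dividing, had 74.5, 50.7 and 81.8 CPM in bcat(ex3)osb mice, against 84.1, 54.2 and 76.1 CPM in WT mice. The mice numbered 2 were low in both genotypes, and the log2 fold change was -0.05 (SE 0.25). Its 95% interval was -0.64 to 0.54, and with the length trend removed the change was -0.01 with SE 0.15.

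The RING subunits carry the ubiquitin ligase activity of PRC1. Ring1 had 23.4, 29.5 and 27.9 CPM in bcat(ex3)osb mice, against 29.1, 43.1 and 28.4 CPM in WT mice, with WT mouse 2 apart from the other 5. Rnf2, the main RING enzyme, had 109, 60.3 and 112 CPM in bcat(ex3)osb mice, against 119.7, 88.2 and 113 CPM in WT mice, with bcat(ex3)osb mouse 2 lowest. Their log2 fold changes were -0.31 (SE 0.24) and -0.19 (SE 0.27). Of the pair's FPKM, Ring1 made up 24.3%, 42.1% and 27.04% in bcat(ex3)osb mice, against 26.5%, 42.1% and 27.2% in WT mice. In both genotypes it was mouse 2 that had the highest share.

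The CBX subunits read the PRC2 mark, and in mouse blood stem cells Cbx7 is known to favour self-renewal, Cbx2 and Cbx8 differentiation. Cbx7 had 21.8, 26.1 and 28.6 CPM in bcat(ex3)osb mice, against 31.2, 26.02 and 27.5 CPM in WT mice, and a log2 fold change of -0.15 (SE 0.22). Cbx2 had 89.7, 73.7 and 78.4 CPM in bcat(ex3)osb mice, against 94.2, 43.7 and 91.7 CPM in WT mice, and a change of 0.07 (SE 0.30), with only WT mouse 2 standing apart. Cbx8 had 23.5, 28.3 and 17.2 CPM in bcat(ex3)osb mice, against 22.3, 25.4 and 21.1 CPM in WT mice, and a change of 0.01 (SE 0.25). In all 3 genes the groups overlapped. Cbx6 had 81.8, 72.2 and 99.99 CPM in bcat(ex3)osb mice, against 112, 90.3 and 99.7 CPM in WT mice, with bcat(ex3)osb mouse 3 above 2 of the WT mice, and a change of -0.25 (SE 0.20) with an adjusted p of 0.882 in edgeR.

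Among the PCGF subunits, which define the PRC1 variants, Pcgf5 took the largest share of the family's FPKM in every mouse, 50.9% ± 1.38 in bcat(ex3)osb mice and 50.9% ± 4.59 in WT mice. Pcgf2, the alternative to Bmi1 in canonical PRC1 and not among the 44, held 0.519% to 0.897% in bcat(ex3)osb mice and 0.445% to 0.741% in WT mice. Pcgf3, a further PCGF subunit, had 29.3, 21.4 and 34.4 CPM in bcat(ex3)osb mice, against 25.9, 15.1 and 26.1 CPM in WT mice. The lowest value was in WT mouse 2, the groups overlapped, and the log2 fold change was 0.34 (SE 0.30). It was 0.40 with SE 0.21 after the length trend was removed, where the groups no longer overlapped, with unadjusted p = 0.0902 and adjusted p = 0.533 in edgeR. Pcgf1, the subunit of the variant complex that holds Kdm2b, had 14.8, 17.9 and 9.42 CPM in bcat(ex3)osb mice, against 13.7, 15.02 and 13.3 CPM in WT mice. Its log2 fold change was 0.00 (SE 0.30).

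In the polyhomeotic family the shares of Phc1 and Phc2 separated the genotypes. Phc1 made up 18.3%, 15.9% and 16.8% in bcat(ex3)osb mice, against 25.96%, 22.7% and 19.6% in WT mice. Phc2 made up 78.5%, 82.8% and 78.7% in bcat(ex3)osb mice, against 71.02%, 73.01% and 77.1% in WT mice. Phc1 itself had 35.6, 31.7 and 31.2 CPM in bcat(ex3)osb mice, against 51.6, 35.5 and 36.3 CPM in WT mice, where only WT mouse 1 stood clearly apart, and a log2 fold change of -0.33 (SE 0.22) with an adjusted p of 0.869 in edgeR. Since shares of a family add to 100%, the Phc1 and Phc2 shares are not separate observations. Over 9 families and 31 shares, 1 was higher without overlap in bcat(ex3)osb mice (Phc2) and 2 were lower (Phc1 and Kdm4c). Over the 27 shares that could be recomputed with the length trend removed, it was 2 higher, with Pcgf3 added, and 2 lower. No test was made of these shares, and no shares of other gene families were computed to set beside these counts.

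**Figure D3:**
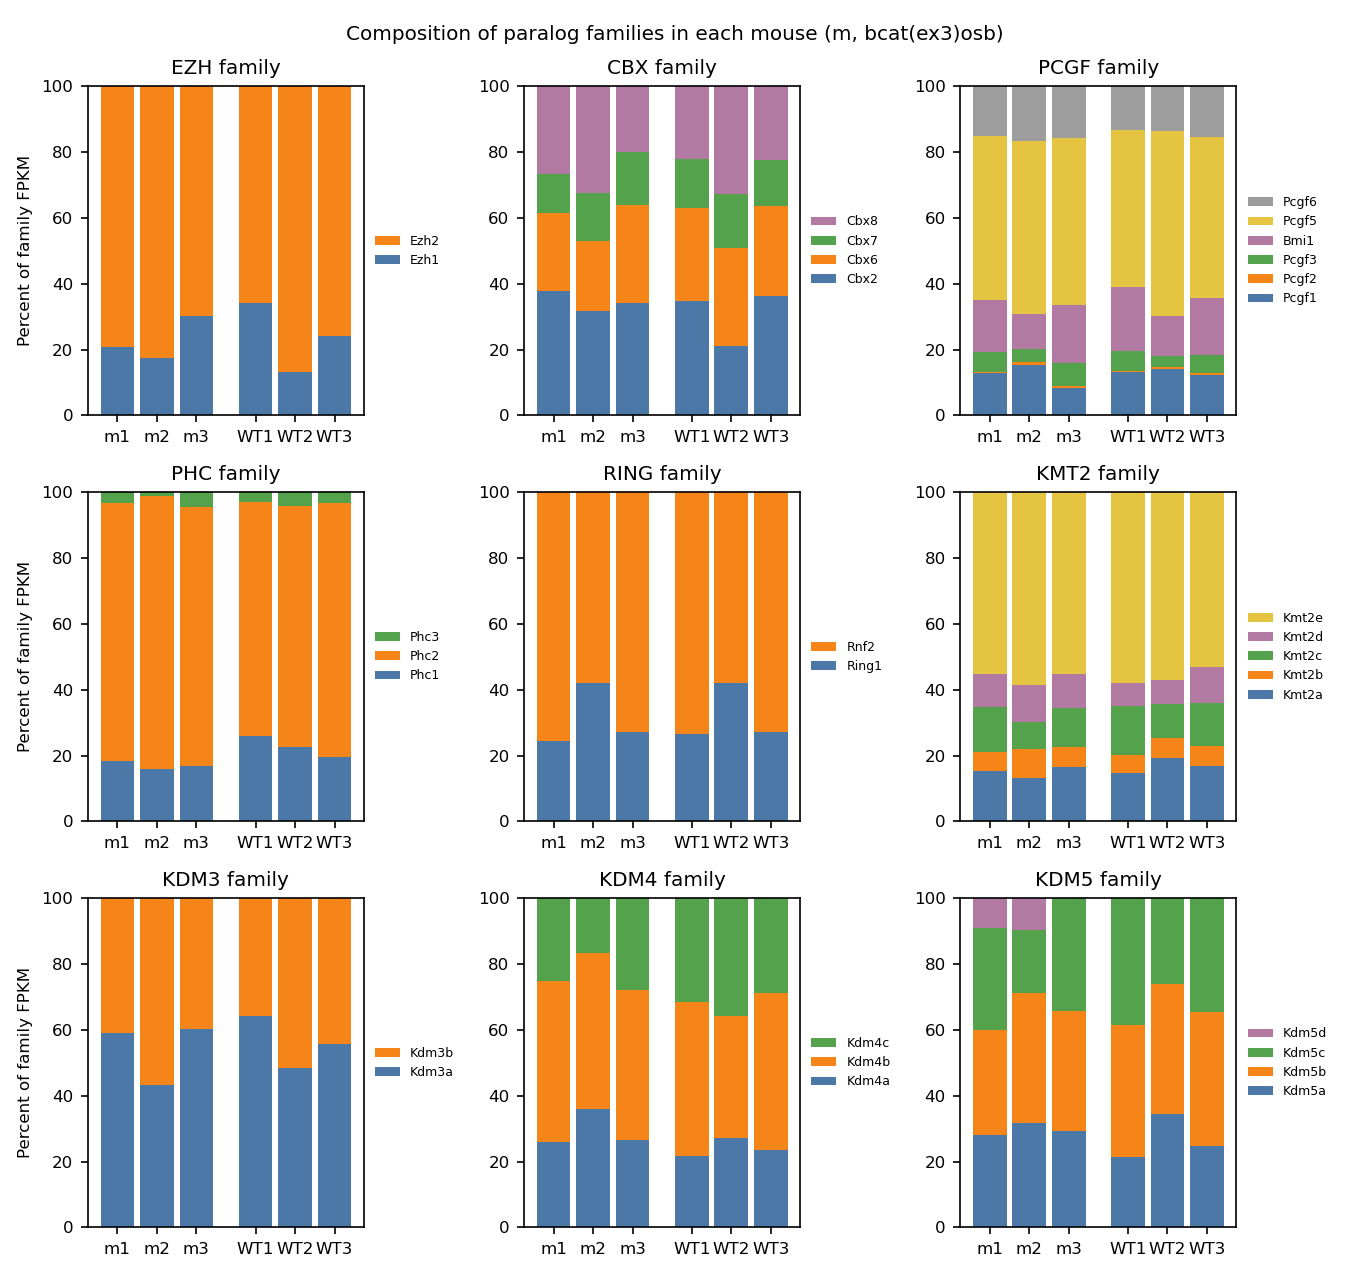
Percent of each family's summed FPKM held by each gene in each mouse; bars m1 to m3 are bcat(ex3)osb mice and WT1 to WT3 are WT mice, the CBX bars cover the members among the 44, and Pcgf2, Kdm5c and Kdm5d are family members outside the 44 regulators. Phc1 held 15.9% to 18.3% of its family in bcat(ex3)osb mice and 19.6% to 26.0% in WT mice, while in most other families the mice of 1 genotype differed as much as the genotypes.

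The 9 KMT2 and COMPASS genes had 3 positive and 6 negative changes, 0 called and a median log2 fold change of -0.08. Kmt2a, the leukaemia gene listed in the tables under its older symbol Mll1, had 124, 79.1 and 129.8 CPM in bcat(ex3)osb mice, against 98.3, 170.5 and 129 CPM in WT mice. The lowest and the highest of the 6 values were in the mice numbered 2, low in bcat(ex3)osb and high in WT, and the log2 fold change was -0.26 (SE 0.28) with an interval of -0.89 to 0.38. Kmt2d, the enhancer methyltransferase with the longest entry of the set at 19827 bases, had 101, 81.9 and 98.05 CPM in bcat(ex3)osb mice, against 55.1, 77.7 and 101 CPM in WT mice. WT mouse 3 was about as high as the highest bcat(ex3)osb mouse, and the change was 0.26 (SE 0.25). With the length trend removed it was 0.41 with SE 0.22, unadjusted p = 0.0929 and adjusted p = 0.535 in edgeR. Kmt2c, its close relative, had 113, 50.1 and 92.8 CPM in bcat(ex3)osb mice, against 100.5, 91.6 and 104 CPM in WT mice, with bcat(ex3)osb mouse 2 far below the other 5 mice. Its change was -0.21 (SE 0.29). Of the summed FPKM of the 5 KMT2 genes, Kmt2e, a family member for which little methyltransferase activity is known, made up 56.3% ± 1.96 in bcat(ex3)osb mice and 56.1% ± 2.67 in WT mice. Kmt2b had a log2 fold change of 0.13 and Kmt2e of -0.07.

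The other partners of the KMT2 enzymes had negative changes, none past the threshold. Men1, the menin cofactor that joins KMT2A to chromatin, had 192, 109 and 144 CPM in bcat(ex3)osb mice, against 200.2, 149 and 196 CPM in WT mice, and a log2 fold change of -0.29 (SE 0.25). Ash2l had 176, 162 and 149.8 CPM in bcat(ex3)osb mice, against 163, 176 and 176 CPM in WT mice, the narrowest spread of the group, and a change of -0.08 (SE 0.17) with an interval of -0.47 to 0.31. Rbbp5 had 86.3, 45.4 and 82.6 CPM in bcat(ex3)osb mice, against 98.6, 56.8 and 89.9 CPM in WT mice, low in both mice numbered 2, and a change of -0.19 (SE 0.31).

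Among the other methyltransferases, Dot1l, which methylates the core of histone H3 and is needed by KMT2A-fusion leukaemia, had 27.3, 20.6 and 34.5 CPM in bcat(ex3)osb mice, against 35.99, 30.9 and 38.3 CPM in WT mice. bcat(ex3)osb mouse 3 reached the WT range, and the log2 fold change was -0.35 (SE 0.25) with an adjusted p of 0.873 in edgeR and -0.02 with sex as a covariate. Setd2, which marks transcribed gene bodies, had 118, 66.8 and 118 CPM in bcat(ex3)osb mice, against 90.2, 102 and 108 CPM in WT mice, and a change of 0.01 (SE 0.25). Nsd1, which places a dimethyl mark outside gene bodies, had 171, 143 and 160.1 CPM in bcat(ex3)osb mice, against 121, 170.4 and 139 CPM in WT mice, and a change of 0.14 (SE 0.20). In both genes the groups overlapped, and Setd2 was lowest in bcat(ex3)osb mouse 2.

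The 11 demethylase genes had 1 positive and 10 negative changes with 0 called, and a median log2 fold change of -0.11. The median was -0.02 with the length trend removed, 0.08 without bcat(ex3)osb mouse 2 and 0.04 with sex as a covariate. Kdm5b, which erases the KMT2 mark at promoters, had 95.8, 74.3 and 111 CPM in bcat(ex3)osb mice, against 153, 94.05 and 132 CPM in WT mice (chr1:134560178-134632878). bcat(ex3)osb mice 1 and 3 reached above WT mouse 2, so the groups overlapped. The log2 fold change was -0.43 (SE 0.25) with unadjusted p = 0.117 and an adjusted p of 0.828 in edgeR. After the length trend was removed, the levels were 88.6, 96.3 and 99.8 CPM in bcat(ex3)osb mice, against 128, 106 and 120.1 CPM in WT mice, without overlap. The change was then -0.32 with SE 0.13, unadjusted p = 0.0412 and an adjusted p of 0.449 in edgeR.

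Kdm4c, a demethylase of the heterochromatin mark, had the lowest fold change of the 44 and one of the widest spreads. It had 36.8, 10.9 and 32.1 CPM in bcat(ex3)osb mice, against 55.1, 25.95 and 37.8 CPM in WT mice. bcat(ex3)osb mouse 2 was far below the other 5 mice, and the log2 fold change was -0.57 (SE 0.46) with an interval of -1.64 to 0.49. Its share of the FPKM of Kdm4a, Kdm4b and Kdm4c was 25.2%, 16.6% and 27.9% in bcat(ex3)osb mice, against 31.6%, 35.8% and 28.9% in WT mice, lower in every bcat(ex3)osb mouse though mouse 3 was close to WT mouse 3. Kdm4b, which acts on the same mark, had 74.7, 32.4 and 54.9 CPM in bcat(ex3)osb mice, against 85.4, 28.2 and 65.3 CPM in WT mice, with both mice numbered 2 low, and a change of -0.14 (SE 0.43). Kdm4a had 42.5, 26.5 and 34.5 CPM in bcat(ex3)osb mice, against 42.2, 22.05 and 34.6 CPM in WT mice, and a change of 0.06 (SE 0.30), the positive one of the group.

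Kdm1a, the demethylase LSD1 that works with blood transcription factors such as Gfi1, had 141, 158 and 147 CPM in bcat(ex3)osb mice, against 162, 151 and 149 CPM in WT mice. Its 6 values lay close together, and the log2 fold change was -0.05 (SE 0.16) with an interval of -0.43 to 0.33. Kdm6b, which erases the PRC2 mark and is induced by inflammatory signals, had 8.99, 14.1 and 10.9 CPM in bcat(ex3)osb mice, against 6.16, 20.03 and 10.1 CPM in WT mice. WT mice 1 and 2 were the lowest and the highest of all 6. The change was -0.09 (SE 0.45) with an interval of -1.13 to 0.95, which reached past 2-fold on the lower side. The 2 CXXC-domain demethylases Kdm2a and Kdm2b had changes of -0.12 (SE 0.25) and -0.04 (SE 0.24). Kdm5a, the relative of Kdm5b, had 148, 104 and 156 CPM in bcat(ex3)osb mice, against 143, 143 and 139 CPM in WT mice, and a change of -0.06 (SE 0.20). Kdm3a, a demethylase of a repressive H3 mark, had 93.6, 39.6 and 104 CPM in bcat(ex3)osb mice, against 118, 62.05 and 86.8 CPM in WT mice, with bcat(ex3)osb mouse 2 lowest. It had a change of -0.17 (SE 0.38), and its relative Kdm3b one of -0.11 (SE 0.18).

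**Figure D4:**
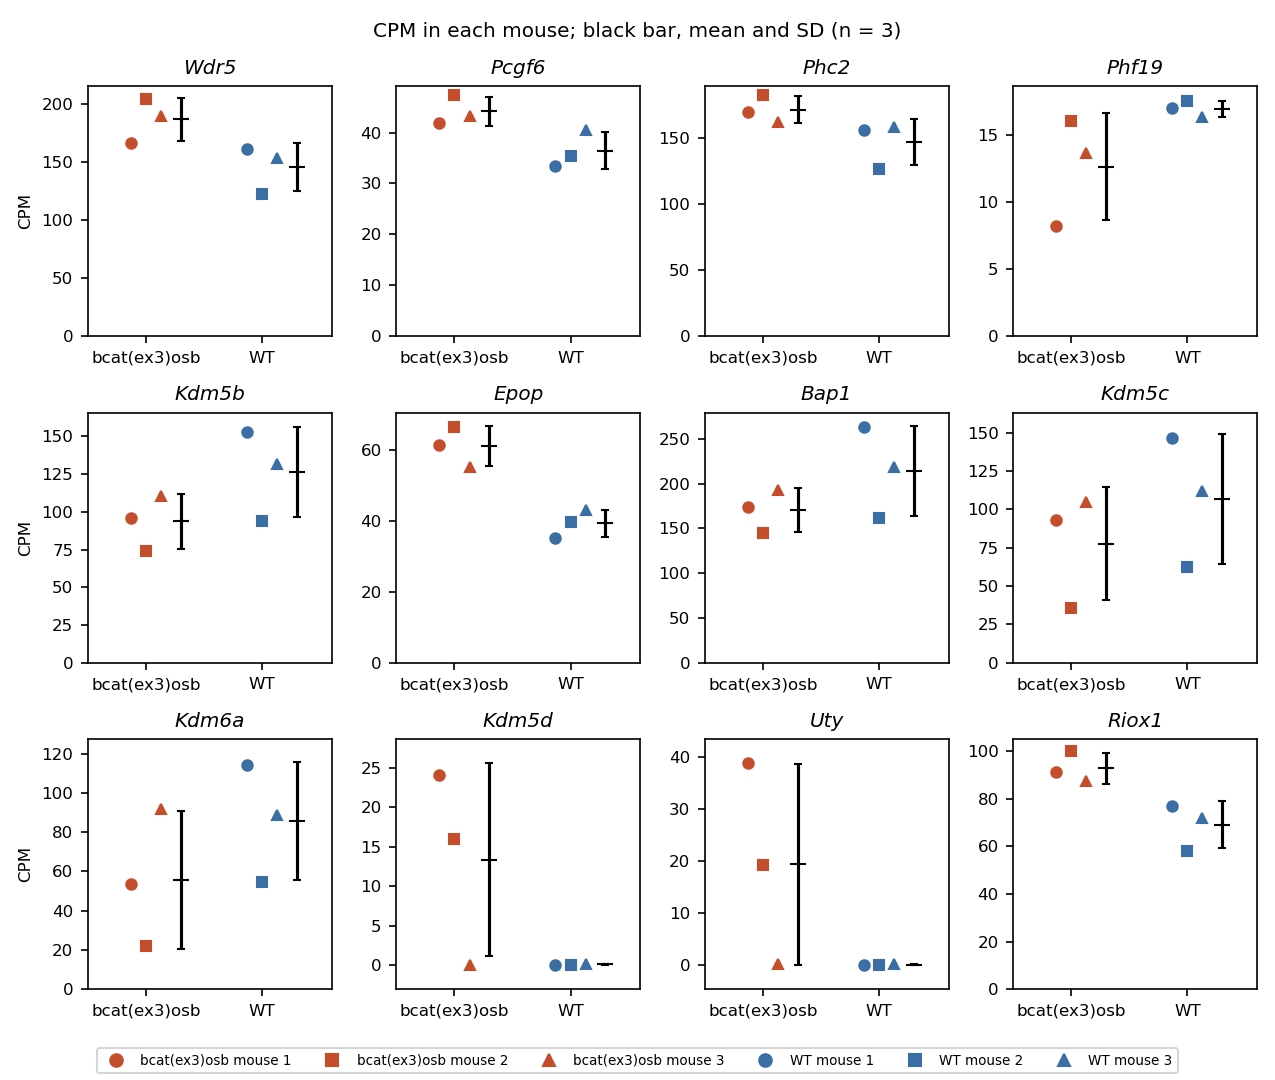
CPM in each mouse for 5 regulators and 7 related genes that the text describes, on axes that include 0; symbols are single mice and the black bar is the mean with its SD (n = 3). Wdr5, Pcgf6, Phc2 and Phf19 do not overlap between the genotypes, and Kdm5d and Uty are near 0 in all mice but bcat(ex3)osb mice 1 and 2.

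Part of the spread between mice followed gene length, and the regulators are long. Their median length in the tables was 4387 bases, from 874 for Pcgf1 to 19827 for Kmt2d, against 2809 for all tested genes. Of the 44 genes, 23 had their lowest CPM of the 6 libraries in bcat(ex3)osb mouse 2, as did 30.2% of all tested genes, and after the length trend was removed it was 12. The share of all tested genes after that removal was not computed. The median deviation of the regulators from their own mean over the 6 libraries was 0.10, -0.28 and 0.07 log2 units in bcat(ex3)osb mice and 0.08, -0.03 and 0.10 in WT mice. With the length trend removed it was 0.06, -0.04 and -0.05 in bcat(ex3)osb mice and 0.03, 0.03 and 0.02 in WT mice.

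By length class, bcat(ex3)osb mouse 2 deviated by a median of 0.06 for the 10 regulators under 3000 bases, -0.38 for the 20 between 3000 and 6000 bases and -0.47 for the 14 over 6000 bases. WT mouse 2 deviated by 0.11, -0.26 and 0.05 in the same classes. The trend of that WT library bent back for the longest genes, while that of bcat(ex3)osb mouse 2 did not. The share of counts in ribosomal protein genes, which are short, was 4.89% in bcat(ex3)osb mouse 2, 3.75% in WT mouse 2 and 1.84% to 2.66% in the others.

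**Figure D5:**
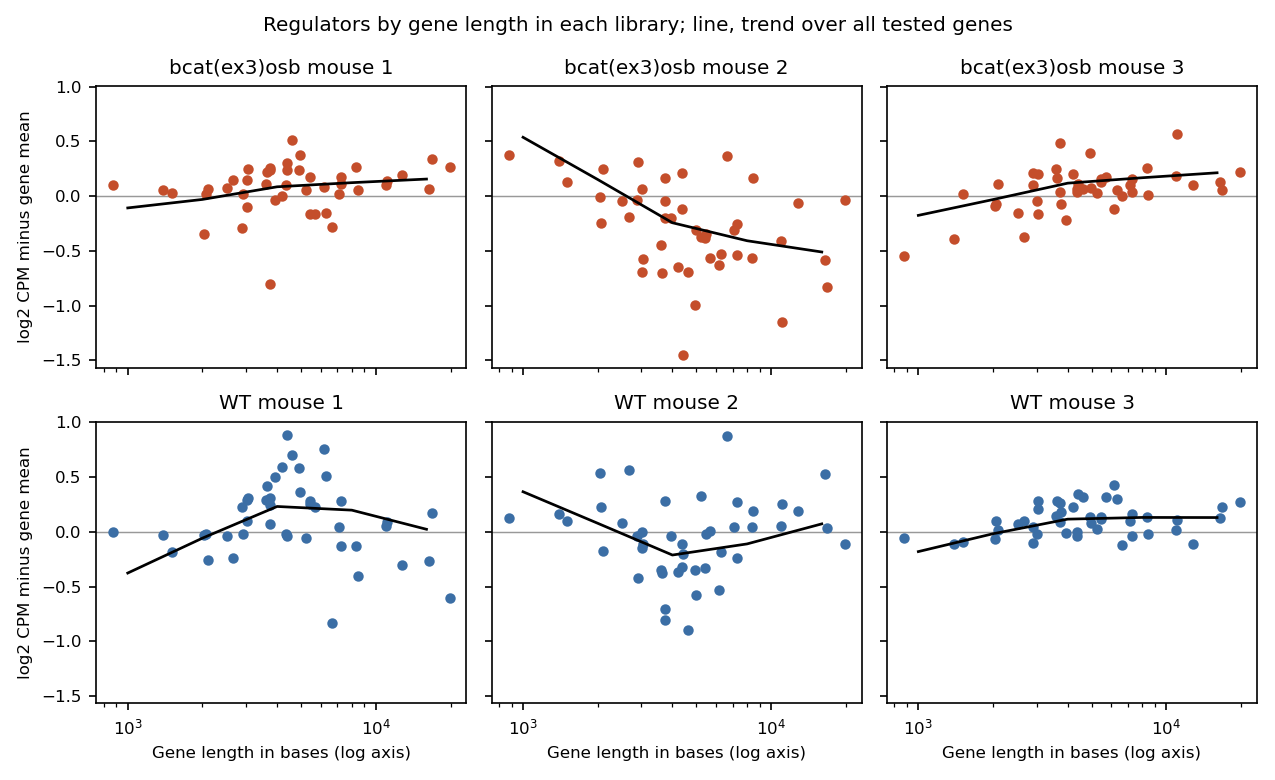
Deviation of each regulator's log2 CPM from its mean over the 6 libraries against gene length in bases on a log axis, 1 panel per mouse with bcat(ex3)osb above WT; points are the 44 regulators and the line is the trend over all tested genes. In bcat(ex3)osb mouse 2 the points follow a line that falls through the whole range of lengths, from 0.54 at 1000 bases to -0.51 at 16000 bases.

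Genes of the same complexes outside the 44 also showed no call. Of 6 other PRC2 genes, all tested, 0 were called, 4 were positive and 2 negative. Without overlap 1 was higher (Epop) and 1 lower (Rbbp7), against 6.87% and 7.67% of all tested genes. The log2 fold change of Rbbp7 was -0.09 (SE 0.16). Epop, listed as E130012A19Rik, links PRC2 to the elongin complex in mouse embryonic stem cells. It had 61.5, 66.8 and 55.4 CPM in bcat(ex3)osb mice, against 35.3, 39.7 and 43.1 CPM in WT mice (chr11:97627387-97629716). Every bcat(ex3)osb mouse was above every WT mouse by a clear margin, and the log2 fold change was 0.64 (SE 0.19) with an interval of 0.20 to 1.07, unadjusted p = 0.0098 and an adjusted p of 0.517 in edgeR and 0.0962 in DESeq2. It was 0.63 with the length trend removed and 0.56 to 0.71 when 1 mouse was left out at a time. With sex as a covariate, which leaves bcat(ex3)osb mouse 3 against the WT mice, it was 0.49. Phf1, another Polycomb-like subunit, had a change of -0.40 (SE 0.25). The histone chaperone Rbbp4 had 0.21 (SE 0.21), and its reads may be shared with processed copies.

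Of 20 other PRC1 and PR-DUB genes, 19 were tested and 0 called, with L3mbtl1 at 0 counts in every library. The smallest p-values belonged to Bap1, the deubiquitinase that removes the PRC1 mark, with a log2 fold change of -0.33 (SE 0.23), to the repressor E2f6 with -0.26 (SE 0.22), and to Scml2, a Polycomb-type protein, with -0.42 (SE 0.51). Of 12 other COMPASS genes 0 were called. Pagr1a and Psip1, partners of the KMT2C/D complexes and of menin, had changes of -0.25 (SE 0.21) and -0.28 (SE 0.24). Of 17 other histone methyltransferases 0 were called, and the heterochromatin enzymes Suv39h1 and Suv39h2 had changes of 0.19 (SE 0.18) and 0.22 (SE 0.23) and Kmt5b, which methylates histone H4, one of -0.31 (SE 0.28). Of 12 other demethylase genes 10 were tested and 0 called. Riox1, a Jumonji hydroxylase, had 91.2, 99.9 and 87.2 CPM in bcat(ex3)osb mice, against 76.9, 58.02 and 72.02 CPM in WT mice without overlap, with a change of 0.43 (SE 0.19), unadjusted p = 0.0519 and an adjusted p of 0.764 in edgeR. Kdm8 had a change of 0.43 (SE 0.31).

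Of the sex-linked demethylases, the Y-linked ones followed the sex of the mice and the X-linked ones did so only in part. Kdm5d, the Y-linked relative of Kdm5b, had 24.1, 16.00 and 0.111 CPM in bcat(ex3)osb mice, against 0.097, 0.065 and 0.195 CPM in WT mice. Uty, the Y-linked relative of Kdm6a, had 38.8, 19.3 and 0.111 CPM in bcat(ex3)osb mice, against 0.097, 0 and 0.146 CPM in WT mice. Both were clearly present in the 2 male mice and had at most 4 counts in any other mouse, and were left untested by the filter. Kdm6a, the X-linked eraser of the PRC2 mark that escapes X inactivation, had 53.6, 21.8 and 91.6 CPM in bcat(ex3)osb mice, against 114, 54.4 and 88.8 CPM in WT mice. Kdm5c, another escape gene, had 93.1, 35.5 and 104.7 CPM in bcat(ex3)osb mice, against 147, 62.3 and 112 CPM in WT mice. Kdm6a was lower in both male mice than in every female mouse, with bcat(ex3)osb mouse 1 just below WT mouse 2. For Kdm5c the male bcat(ex3)osb mouse 1 was above the female WT mouse 2. The log2 fold changes of Kdm6a and Kdm5c were -0.62 (SE 0.49) and -0.46 (SE 0.44) in the genotype fit. They were 0.09 and -0.03 with sex as a covariate, which leaves bcat(ex3)osb mouse 3 against the WT mice. Reads shared between the X and Y copies could be split between them, and how the counting treated them is not stated. No male WT mouse and 1 female bcat(ex3)osb mouse were present, so the comparison within each sex had too few mice.

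Genes known to be controlled by these regulators were described in the same way. Of 20 genes that Polycomb commonly represses in other lineages, 15 had 0 counts in every library and 2 passed the filter. Cdkn1a, a cell cycle inhibitor, had 80.97, 85.8 and 24.5 CPM in bcat(ex3)osb mice, against 16.2, 46.6 and 39.5 CPM in WT mice, higher in the 2 male mice, with a log2 fold change of 0.90 (SE 0.53) that was -0.48 with sex as a covariate. The latter value rests on bcat(ex3)osb mouse 3 against the WT mice. Cdkn1c, the inhibitor typical of resting stem cells, had 6.62, 19.5 and 19.7 CPM in bcat(ex3)osb mice, against 21.7, 18.9 and 15.2 CPM in WT mice, and a change of -0.28 (SE 0.42). Cdkn2a and Cdkn2b, the classical targets of Bmi1, were among the 15 at 0.

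Of 9 target genes of KMT2A, all were tested and 0 called, 3 were positive and 6 negative, and the median log2 fold change was -0.23. Eya1 had 30.3, 26.8 and 29.9 CPM in bcat(ex3)osb mice, against 51.99, 28.2 and 46.8 CPM in WT mice, with the groups overlapping through WT mouse 2, and a change of -0.55 (SE 0.26) with an adjusted p of 0.787 in edgeR. Mef2c had 288, 229.5 and 256 CPM in bcat(ex3)osb mice, against 297, 309.6 and 333 CPM in WT mice, and a change of -0.28 (SE 0.18). It was lower in every bcat(ex3)osb mouse, 1 of the 9 where 7.67% of all tested genes did so. With the length trend removed the groups of Mef2c overlapped, with a change of -0.18 (SE 0.16), while those of Eya1 did not overlap. Meis1 had 157, 141 and 204 CPM in bcat(ex3)osb mice, against 277, 159 and 203 CPM in WT mice, and a change of -0.35 (SE 0.25). Of 18 cell cycle genes 0 were called, 9 were positive and 9 negative, with a median of -0.01. They summed to 7454, 6249 and 6191 CPM in bcat(ex3)osb mice, against 6752, 6250 and 7315 CPM in WT mice, with overlap. E2f1, a factor that drives genes of DNA replication, had 109.5, 138 and 115 CPM in bcat(ex3)osb mice, against 102, 99.7 and 108 CPM in WT mice. It was the 1 gene of the 18 without overlap, higher in every bcat(ex3)osb mouse, with a change of 0.23 (SE 0.18) and an adjusted p of 0.88 in edgeR. Top2a, the topoisomerase of dividing cells, and Bub1, a kinase of the spindle checkpoint, overlapped between the genotypes and had changes of -0.48 (SE 0.30) and -0.39 (SE 0.33).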

How the data were processed

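Total RNA of LSK cells from 6 mice was sequenced. Per the labels, the AllPrep kit was used for extraction and the TruSeq Stranded Total RNA kit for libraries, amplified at the end with KAPA HiFi. The submitters' processing notes name bcl2fastq (2.17), the aligner STAR (2.5.2b), the counter featureCounts (1.5.0-p3) and the build mm10. The sources used here state neither the annotation nor the strand setting nor the handling of multi-mapping reads, so genes that overlap another gene or have close copies are uncertain. Raw whole-number counts for each gene were deposited, and the authors' FPKM, which equalled counts scaled by gene length and library total within 0.005.

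The counts of all 23420 genes were analysed as deposited. Genes with 10 or more counts in 3 or more libraries were kept, and edgeR 4.0.16 (R 4.3.3) was run with TMM scaling, genotype alone in the model and the quasi-likelihood F test (two-sided), with Benjamini-Hochberg adjustment over the 12713 genes tested and a threshold of 0.05. Standard errors were derived from the F statistic. Fold changes are bcat(ex3)osb over WT. The gene-length trend was removed by an offset per library, a loess curve (span 0.4) of log2 CPM (prior count 1) minus the gene's mean against log2 length. The procedure was tested on simulated data. DESeq2 1.42.0, limma-voom (limma 3.58.1), other scalings and filters, FPKM with a pseudocount of 1 or 0.1, a replicate block, sex as a covariate and leaving out mice were the alternatives. With sex as a covariate the genotype effect rests on the female mice, among which bcat(ex3)osb mouse 3 was the only one of its genotype.

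The files list 5 members under older symbols (Mll1, Wbp7, Mll3, Mll2 and Mll5), matched through RefSeq synonyms. Mll2 is a synonym of both Kmt2b and Kmt2d, and was taken as Kmt2d since Kmt2b has its own entry and the length of 19827 bases is close to the 19931 of Kmt2d in GENCODE. Values per mouse were printed for the 12 members with the smallest unadjusted p and for Ezh1, Ezh2, Eed, Suz12, Bmi1, Cbx2, Cbx7, Cbx8, Kmt2a, Kdm1a and Kdm6b. From each related list up to 3 tested genes with the smallest p were named, and 1 listed gene is not reported here. The other members and Cdkn2a, Cdkn2b, L3mbtl1, Rbbp7, Kit, Ly6a, Procr, Ibsp and Sp7 were named after their values were seen. The members and lists were chosen with earlier results of these data known. Coordinates and promoter windows are from RefSeq on GRCm38.p6, the assembly that mm10 names. Same-numbered mice were checked for pairing by the correlation of their deviations from the genotype means.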

Additional observations from a re-analysis of the deposited data

How the results depend on the processing

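No regulator passed the threshold under any alternative, and the median log2 fold change of the 44 ran from -0.19 to 0.04 over all of them. Over all genes, calls numbered 0 in the genotype fit, 172 with DESeq2, 1 with the length trend removed (Hp), 0 to 13 when 1 mouse was left out and 0 to 12 when that was combined with the length trend removed. The 13 came without bcat(ex3)osb mouse 1. All 13 were lower in bcat(ex3)osb mice, and the B cell markers Cd79a, Ebf1 and Vpreb3 were among them. The cause was not tested. The count of regulators without overlap was 4 in the genotype fit and 5 to 17 when 1 mouse was left out, where fewer mice overlap less easily. It was 8 of 44 (18.2%) without bcat(ex3)osb mouse 1, against 25.3% of all genes tested, 10 (22.7%) without bcat(ex3)osb mouse 2, against 23.2%, 7 (15.9%) without bcat(ex3)osb mouse 3, against 23.7%, and 17 (38.6%) without WT mouse 2, against 34.4%. Without WT mouse 1 it was 5 (11.4%), against 20.2%, and without WT mouse 3 it was 5 (11.4%), against 18.4%. The Ezh1 share difference, -0.99 points, was -6.28 to 4.14 when 1 mouse was left out, with 0.0252 without bcat(ex3)osb mouse 1, 1.69 without bcat(ex3)osb mouse 2 and 4.14 without WT mouse 1. With sex as a covariate, which leaves bcat(ex3)osb mouse 3 against the WT mice, the sign of 12 regulators turned and 6 moved by over 1 SE.

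The replicate numbers are not shown to pair the mice, since same-numbered mice deviated together with correlations of 0.101, 0.340 and 0.0746, and bcat(ex3)osb mouse 1 correlated more with WT mouse 3 (0.127). With a replicate block edgeR called 5 genes (Hp, Elane, Ms4a3, Klf9 and Mt1), 1 with the length trend removed as well (Hp), and 0 regulators in both. Every regulator had at least 111 counts in each library, and counting error was not separated from the spread between mice.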

Other observations

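Other motifs were counted in the 47 RefSeq promoter windows (GRCm38.p6) of the 33 regulators that had one, each on both strands, beside their share of all 32851 windows. CCAAT, the box of NF-Y, was in 19 of the 47 windows, those of 14 regulators (Cbx7, Cbx8, Eed, Ezh2, Jarid2, Kdm1a, Kdm2b, Kdm3a, Kdm4a, Men1, Mtf2, Pcgf5, Phc2 and Suz12), and in 37.4% of all windows. The E-box CACGTG, bound by MYC among others, was in 6 windows, 1 each of Bmi1, Cbx6, Cbx8, Kdm4c, Phc2 and Phc3, and in 7.15% of all windows. TTTGAA, the core of the CHR element of cell cycle genes, was in 4 windows, of Cbx7, Eed, Mtf2 and Suz12, and in 17.9% of all windows. The YY1 motif GCCATNTTG was in 3 windows, of Bmi1, Dot1l and Jarid2, and in 2.51% of all windows, and the NRF1 motif in 1, of Phc3, and in 0.615%. CCGGAAG, an ETS motif, was in 3 windows, of Dot1l, Kdm3a and Phc2, and in 8.86% of all windows, and TTCCCGCC in 1, of Pcgf5, and in 2.19%. ACTTCCGG was in none of the 47, against 3.89% of all windows. These are matches of letters in windows of 300 bases, and they were not tested against the expression values.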
